A study of Mus musculus with 12 samples.

Results

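A set of 43 mouse genes of DNA replication and mitosis was followed across the 12 arrays of a study of the chromatin factor Mbd3 in reprogramming. The members were taken by symbol from a list of genes that copy DNA in S phase, genes that carry cells through mitosis and the cyclins that open the cycle. For a gene with several probe sets, the one with the highest mean signal was read. Of the 43 genes, 42 had a probe set of their own, out of 19938 genes on the array, and the signal of Ccnb1 was not analysed here. All 42 lay above the array's median signal on at least 1 array and so stood among the 13044 genes that were tested. On all 12 arrays 39 of them were above the median, the exceptions being Gmnn (7 arrays), Orc1 (9 arrays) and Cdc6 (10 arrays).

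The arrays came from 3 states and 3 Mbd3 genotypes. Mouse embryonic fibroblasts (MEF) were flox/- (1 floxed and 1 deleted Mbd3 copy), -/- (no intact copy) or WT (+/+). The labels place flox/- and WT MEF before induction and give -/- MEF only as MEF. MEF under doxycycline (DOX), which switches on a transgene for OSKM (Oct4, Sox2, Klf4 and the Myc factor), were sampled at day 4 in flox/- and WT cells, at day 8 in flox/- and WT cells, and at day 11 in WT cells. Pluripotent lines were flox/- and WT induced pluripotent stem cells (iPSC) and -/- and WT embryonic stem cells (ESC), the last from the V6.5 line. All flox/- arrays and all WT arrays except the WT ESC array were labelled as carrying the OSKM transgene, which the labels do not give for -/- MEF, -/- ESC or WT ESC. Per the labels, all cells grew in ESC medium with LIF and inhibitors (2i) on irradiated DR4 feeder fibroblasts, so RNA of feeders can be in every sample. Each genotype and stage had 1 array, so the replicates of a state are arrays that differ in genotype or day, and genotype and culture cannot be told apart within a stage.

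Cells copy their DNA in S phase. The origin recognition complex and Cdc6 load the ring of Mcm2 to Mcm7 onto DNA, Cdc45 and the GINS proteins turn it into a working helicase, and clamp, clamp loader, primase and polymerases follow at the fork. Mitosis then runs on Cdk1 with cyclins A and B, on the Aurora and Polo kinases, and on the checkpoint and anaphase-promoting machinery that times chromosome separation. In textbook accounts, genes of S phase are driven by E2F factors, which the D cyclins release from the retinoblastoma protein, and genes of mitosis by the MuvB complex with B-Myb and FoxM1 through a promoter element called CHR. Mouse pluripotent cells are known for a short G1 phase, a large share of cells in S phase and low D cyclins.

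Several arrays need care. Per the labels, an earlier series supplied the WT ESC array and the WT day 8 array. The labels of the WT day 8 array name 8 days in the title and stage and 4 days in the source, so its day is taken from the title. The mean log2 signal of 10 pluripotency markers was 5.11 to 5.33 in the 3 MEF arrays, 7.40 and 6.50 in flox/- and WT day 4, 11.74 and 6.56 in flox/- and WT day 8, 10.81 in WT day 11 and 11.56 to 11.68 in the pluripotent lines. The mean of 9 measured fibroblast markers was 8.85 and 10.84 in flox/- and WT day 4, 6.32 and 7.96 in flox/- and WT day 8, and 9.82 in WT day 11. In the pluripotent lines it lay between 6.48 in flox/- iPSC and 9.11 in WT iPSC, against 11.45 to 11.75 in MEF. Fbn1 of that list was not analysed here. Of 10 macrophage markers, 9 were above the array's median in flox/- MEF and in WT MEF, 7 in -/- MEF, 8 in WT day 4, 5 in WT iPSC and 1 to 4 on the other arrays. Their mean was 8.61 in WT day 4 and 5.47 to 6.81 in all other DOX and pluripotent arrays, against 9.94 in WT MEF, 9.08 in flox/- MEF and 6.95 in -/- MEF. The part of other cells in the results below was not tested. In bulk samples, fewer cells in a phase of the cycle and less RNA per cell cannot be told apart. Mbd3 itself measured 8.73 to 9.11 in flox/- arrays, 8.15 in -/- MEF and 6.73 in -/- ESC, against 9.0 to 9.67 in WT arrays, and where its probes lie relative to the deleted part is not known.

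The promoters shown first are those of some replication members that hold a match to the element taught as the mark of this group. Each line gives bases from 180 before to 20 after the annotated transcript start, 5′ to 3′ on the gene's strand, from RefSeq on build GRCm38.p6, and capitals mark matches to the E2F motif TTTNNCGC on either strand.
Mcm5, chr8:75109329-75109528, plus strand: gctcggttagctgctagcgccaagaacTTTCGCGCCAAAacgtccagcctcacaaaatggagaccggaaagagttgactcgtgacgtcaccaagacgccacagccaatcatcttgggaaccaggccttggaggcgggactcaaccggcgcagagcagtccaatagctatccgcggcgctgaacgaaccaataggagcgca
Mcm6, chr1:128359686-128359885, minus strand: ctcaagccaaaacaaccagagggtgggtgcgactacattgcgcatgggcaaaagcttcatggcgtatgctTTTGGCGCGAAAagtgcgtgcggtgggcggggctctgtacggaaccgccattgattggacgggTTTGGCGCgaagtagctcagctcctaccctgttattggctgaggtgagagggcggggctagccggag
Orc1, chr4:108579274-108579473, plus strand: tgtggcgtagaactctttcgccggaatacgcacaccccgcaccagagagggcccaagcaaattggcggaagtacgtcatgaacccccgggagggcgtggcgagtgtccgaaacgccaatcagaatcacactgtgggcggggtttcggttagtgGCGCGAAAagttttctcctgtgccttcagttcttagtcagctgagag
Mcm5 and Mcm6 encode helicase subunits, and in each a match on the gene's strand runs into a match on the other strand. Orc1 encodes the large subunit of the origin recognition complex, and its match lies just before the start. The windows of Mcm10, Mcm2 and Cdc45 held no E2F match.

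The mitotic promoters below are shown for comparison, with capitals marking matches to the CHR motif TTTGAA and, in Cdk1 alone, also to the E2F motif.
Ccnb2, chr9:70421535-70421734, minus strand: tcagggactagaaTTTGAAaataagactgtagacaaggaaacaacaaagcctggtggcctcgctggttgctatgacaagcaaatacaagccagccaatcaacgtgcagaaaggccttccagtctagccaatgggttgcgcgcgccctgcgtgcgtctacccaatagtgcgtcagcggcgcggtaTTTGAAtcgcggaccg
Cdc20, chr4:118437324-118437523, minus strand: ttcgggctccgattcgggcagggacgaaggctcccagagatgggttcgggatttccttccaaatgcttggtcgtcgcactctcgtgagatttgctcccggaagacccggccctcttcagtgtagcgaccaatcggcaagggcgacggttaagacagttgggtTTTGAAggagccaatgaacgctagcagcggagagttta
Cdk1, chr10:69352893-69353092, minus strand: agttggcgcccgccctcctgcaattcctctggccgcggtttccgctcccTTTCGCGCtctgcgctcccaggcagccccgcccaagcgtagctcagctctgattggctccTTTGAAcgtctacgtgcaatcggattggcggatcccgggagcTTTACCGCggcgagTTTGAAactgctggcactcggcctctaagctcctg
Ccnb2 encodes cyclin B2, Cdc20 an activator of the anaphase-promoting complex and Cdk1 the kinase of mitotic entry. Among the mitotic members Cdk1 was the gene whose window held both elements.

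Promoter windows of 300 bases, from 250 before to 50 after the start, were matched for 33 of the 43 members, in 35 windows, Mcm7 and Ccnd3 having 2 windows each. Those of Ccna2, Ccnd1, Ccnd2, Ccne2, Aurkb, Gins1, Gins2, Gmnn, Mcm4 and Pole were not analysed here. The E2F motif was present in 9 of 18 windows of replication members (50%), against 1 of 13 windows of mitotic members (7.69%) and 5.17% of all 32851 windows of that length. The CHR motif ran the other way, with 2 of 18 replication windows (11.1%) against 10 of 13 mitotic windows (76.9%) and 17.9% of all windows. The CCAAT box (CCAAT on either strand) was present in 15 of 18 replication windows (83.3%) and 12 of 13 mitotic windows (92.3%), against 37.4% of all windows. In the members' windows 1 match of one motif overlapped a match of another. No E2F or CHR match was present in the windows of E2f1, Ccne1 and Ccnd3. Other genes of the same processes had the E2F motif in 30.2% of replication windows and 13.5% of mitotic windows, and the CHR motif in 14% and 64.9%. A match is a description of letters in the window.

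**Figure D1:**
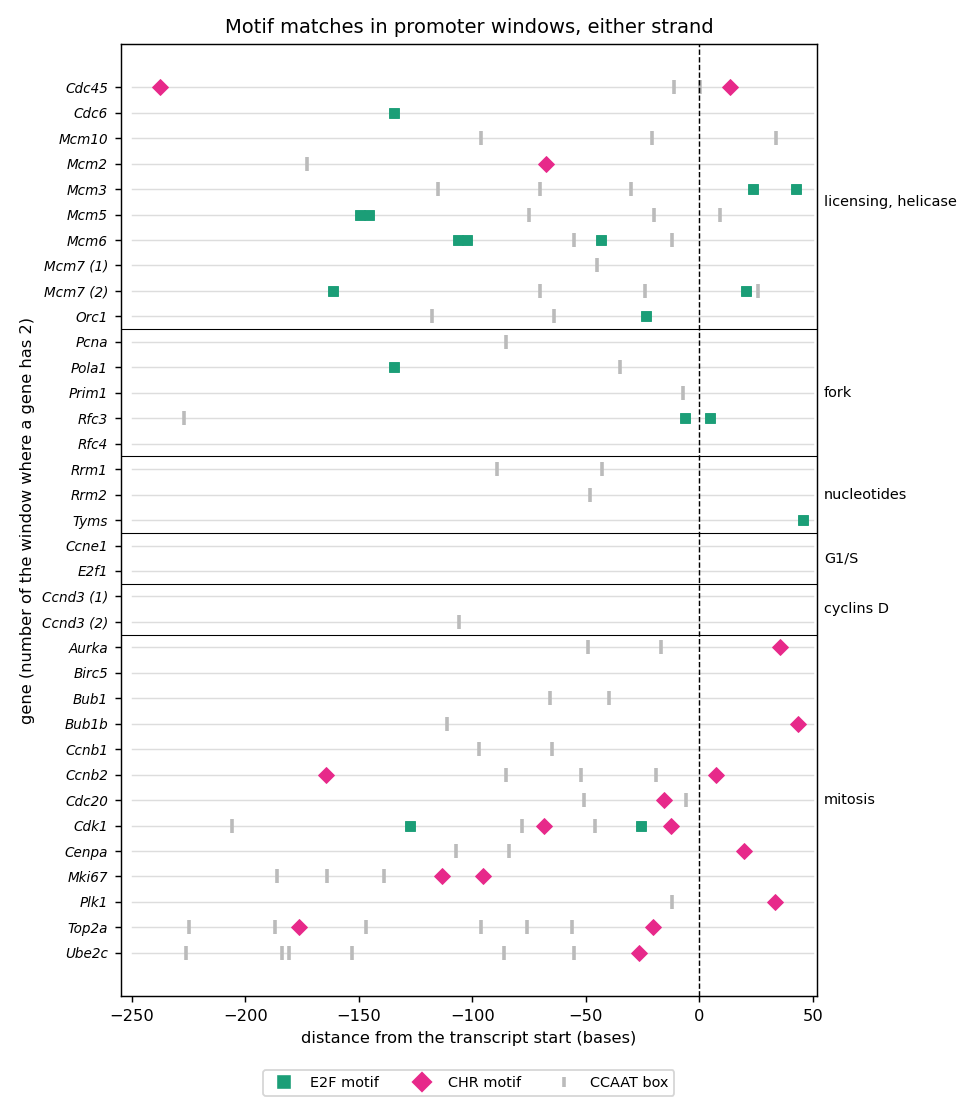
Positions of E2F (green squares), CHR (pink diamonds) and CCAAT (grey bars) matches in the 35 promoter windows of 33 members, in bases from the transcript start (dashed line), with genes grouped by role from top to bottom. E2F matches sit in 9 of 18 replication windows and CHR matches in 10 of 13 mitotic windows.

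Most members were higher in pluripotent lines than in MEF. Of 42 members, limma called 36 higher and 2 lower in the 4 pluripotent arrays than in the 3 MEF arrays at a Benjamini-Hochberg adjusted p under 0.05 over all 13044 genes, of which 30.1% were higher and 29.9% lower. Among the 22 replication members 21 rose, with a median log2 difference of 1.98, and among the 14 mitotic members 13 rose, with a median of 1.26, against a median of 0.03 over all genes. For the 36 members that rose, every pluripotent array lay above every MEF array, a separation that 32.3% of all genes showed in this direction. The members that fell were the cyclin genes Ccnd1 and Ccnd2. Rrm1, Ccne2, Ccnd3 and Mki67 did not pass the test. The count of 38 was the same with any 1 array left out, and 34 members were called in a fit of all 12 arrays, in which E2f1, Rrm2, Ccna2 and Ccnd1 no longer passed.

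**Figure D2:**
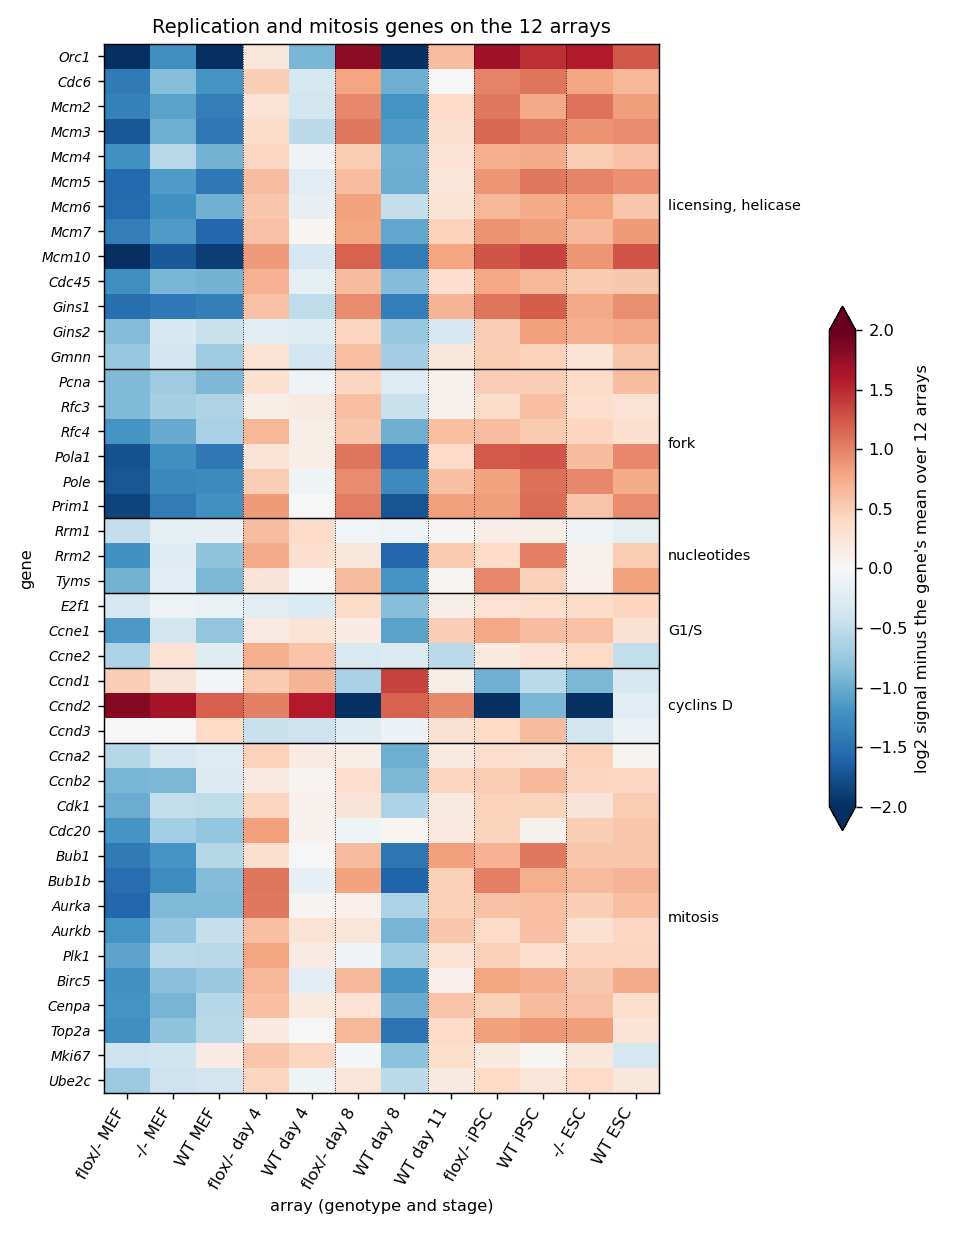
Log2 signal of the 42 measured members on the 12 arrays, each gene shown as the difference from its own mean over the arrays (blue low, red high, colours saturate at 2 log2 units), with genes grouped by role. The 3 MEF arrays and the WT day 8 array are low for most replication and mitotic genes, and the Ccnd2 row runs the other way.

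All 13 members of origin licensing and the helicase rose, with a median of 2.17. Orc1 had a log2 signal of 10.05 in flox/- iPSC, 9.83 in WT iPSC, 9.94 in -/- ESC and 9.60 in WT ESC, against 6.26 in flox/- MEF, 7.13 in -/- MEF and 6.14 in WT MEF. Its pluripotent arrays lay close together and far above MEF, and it was 10.2-fold higher (log2 difference 3.35 ± 0.25 SE, limma adjusted p = 5.36e-05). Mcm10, which helps to activate the loaded helicase, measured 10.45, 10.55, 10.07 and 10.45 in flox/- iPSC, WT iPSC, -/- ESC and WT ESC, against 6.92, 7.52 and 7.31 in flox/-, -/- and WT MEF. It was 8.75-fold higher (3.13 ± 0.18 SE, limma adjusted p = 2.31e-05). Cdc6, the loading factor, rose 4.09-fold. In flox/- and WT MEF the signals of Orc1 and Cdc6 lay below the array median of 6.31.

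All 6 subunits of the Mcm2 to Mcm7 ring rose, between 2.92-fold (Mcm4) and 5.17-fold (Mcm3). Mcm5 measured 11.21, 11.39, 11.32 and 11.25 in flox/- iPSC, WT iPSC, -/- ESC and WT ESC, against 8.78, 9.21 and 8.90 in flox/-, -/- and WT MEF. The pluripotent values spread by less than the MEF values, and the difference was 2.33 ± 0.13 SE on the log2 scale (5.03-fold, limma adjusted p = 2.04e-05). Mcm2 rose 4.59-fold, Mcm6 3.81-fold and Mcm7 4.50-fold. The partners that complete the helicase rose as well, Gins1 5.36-fold, Cdc45 3.15-fold and Gins2 2.37-fold. Geminin (Gmnn), the inhibitor that blocks new licensing after S phase has begun, rose 2.09-fold.

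All 6 fork members rose, with a median of 1.87. Pola1, the catalytic subunit of polymerase alpha, measured 10.15, 10.17, 9.54 and 9.88 in flox/- iPSC, WT iPSC, -/- ESC and WT ESC, against 7.18, 7.69 and 7.49 in flox/-, -/- and WT MEF. It was 5.58-fold higher (2.48 ± 0.20 SE, limma adjusted p = 6.69e-05). The primase gene Prim1 rose 5.13-fold and Pole, the catalytic subunit of polymerase epsilon, 5.0-fold. The clamp gene Pcna rose 2.51-fold, and the clamp loader genes Rfc3 and Rfc4 rose 2.17-fold and 2.68-fold. Pcna had 2 probe sets with nearly equal values on every array. The folds of different probe sets were not tested against each other.

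Of the 3 nucleotide supply members 2 rose. Rrm1, the large subunit of ribonucleotide reductase, measured 11.42, 11.41, 11.20 and 11.09 in flox/- iPSC, WT iPSC, -/- ESC and WT ESC, against 10.82, 11.10 and 11.13 in flox/-, -/- and WT MEF. The groups overlapped, and the difference of 0.27 ± 0.14 SE did not pass (limma adjusted p = 0.13). Its partner Rrm2 was higher by 1.25 ± 0.28 SE (2.38-fold, adjusted p = 0.00634), and the thymidylate synthase gene Tyms by 1.27 ± 0.26 SE (2.42-fold, adjusted p = 0.00437). Rrm1 was highest of all arrays in flox/- day 4, at 11.90.

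Of the 14 mitotic members 13 rose, between 1.60-fold and 3.96-fold. Bub1b, a kinase-like protein of the spindle checkpoint, measured 10.59, 10.31, 10.22 and 10.26 in flox/- iPSC, WT iPSC, -/- ESC and WT ESC, against 8.05, 8.32 and 8.72 in flox/-, -/- and WT MEF. The arrays of the 2 states did not overlap, and Bub1b was 3.96-fold higher (1.98 ± 0.18 SE, limma adjusted p = 0.000108). The checkpoint kinase gene Bub1 rose 3.41-fold and the spindle kinase gene Aurka 3.22-fold. Birc5 and Aurkb, which encode members of the chromosomal passenger complex, rose 3.08-fold and 2.35-fold, Top2a, the topoisomerase that untangles sister chromatids, 2.95-fold, and the centromeric histone gene Cenpa 2.66-fold. A second, dim probe set of Top2a was not used for that fold. It measured 4.13 to 4.86 in pluripotent arrays and 3.80 to 4.24 in MEF, which overlap. Cdc20 rose 2.43-fold, Ccnb2 2.30-fold, the Polo kinase gene Plk1 2.19-fold, Cdk1 2.13-fold, Ube2c, the ubiquitin-conjugating enzyme of the anaphase-promoting complex, 1.76-fold, and the cyclin A2 gene Ccna2 1.60-fold.

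Mki67, whose protein Ki-67 coats mitotic chromosomes and is a common stain for cycling cells, was the mitotic member that did not pass. It measured 11.06, 10.91, 11.10 and 10.53 in flox/- iPSC, WT iPSC, -/- ESC and WT ESC, against 10.46, 10.47 and 11.03 in flox/-, -/- and WT MEF. The groups overlapped through WT MEF, which lay above WT iPSC and WT ESC, and the difference was 0.25 ± 0.20 SE (limma adjusted p = 0.322).

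**Figure D3:**
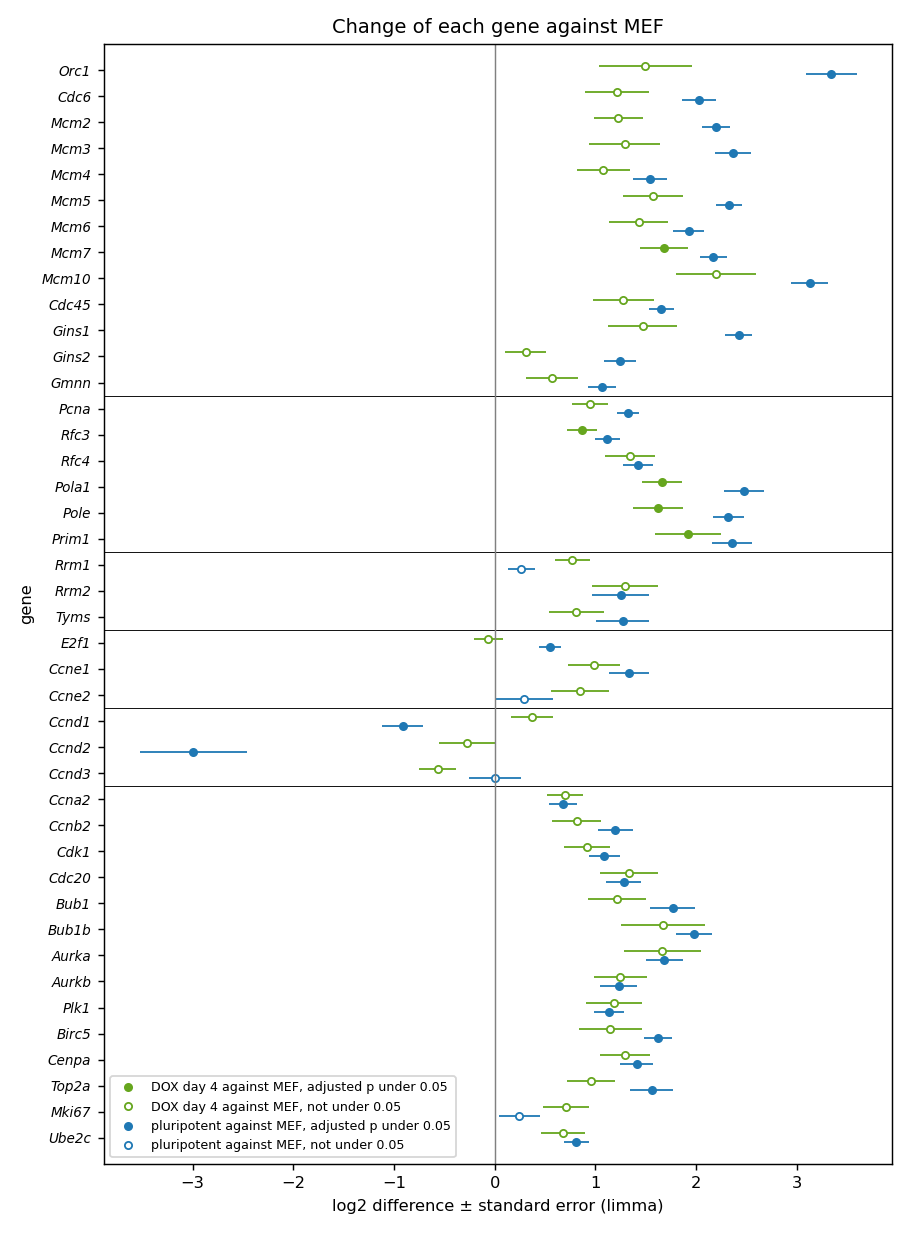
Log2 difference of each of the 42 members, with its standard error, in DOX day 4 arrays (green, n = 2) and in pluripotent arrays (blue, n = 4), each against the same 3 MEF arrays; filled points passed an adjusted p of 0.05. Pluripotent values reach 3.35 for Orc1 and -2.99 for Ccnd2, and 5 of the day 4 points are filled.

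The genes that gate entry into S phase split. E2f1, a transcription factor of the E2F family, measured 9.13, 9.20, 9.22 and 9.28 in flox/- iPSC, WT iPSC, -/- ESC and WT ESC, against 8.51, 8.75 and 8.72 in flox/-, -/- and WT MEF, a rise of 0.55 ± 0.11 SE (1.46-fold, limma adjusted p = 0.00336). The cyclin E1 gene Ccne1 rose 2.52-fold (1.34 ± 0.20 SE, adjusted p = 0.000984). Ccne2, which encodes cyclin E2, differed by 0.30 ± 0.28 SE (adjusted p = 0.389), with overlapping arrays.

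The D cyclins couple growth signals to the cycle in G1. Ccnd2 lies on chromosome 6 (127125162 to 127152188, GRCm38.p6) and measured 8.55 in flox/- iPSC, 10.18 in WT iPSC, 9.08 in -/- ESC and 10.87 in WT ESC, against 12.93 in flox/- MEF, 12.76 in -/- MEF and 12.30 in WT MEF. No pluripotent array reached the MEF range, although the pluripotent arrays themselves spanned more than 2 log2 units, and Ccnd2 was 7.96-fold lower (-2.99 ± 0.53 SE, limma adjusted p = 0.00222). Ccnd1 measured 10.41, 10.83, 10.47 and 11.05 in flox/- iPSC, WT iPSC, -/- ESC and WT ESC, against 11.86, 11.63 and 11.32 in flox/-, -/- and WT MEF, and was 1.88-fold lower (-0.91 ± 0.20 SE, adjusted p = 0.00621). Ccnd3 differed by 0.00 ± 0.26 SE (adjusted p = 1), with overlapping arrays. All 9 measured fibroblast markers also fell, with a median of -3.76, and the part of fibroblast RNA in the cyclin signals was not tested.

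**Figure D4:**
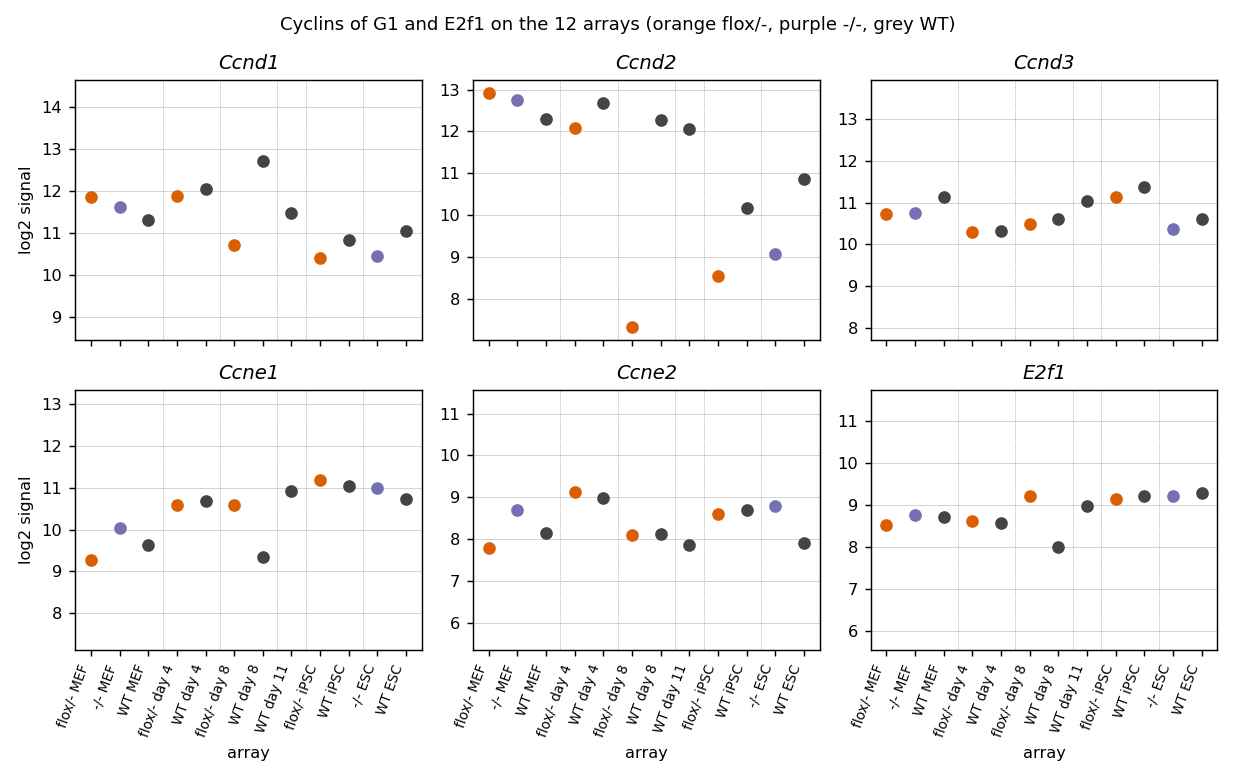
Log2 signal of the D cyclin genes, the cyclin E genes and E2f1 on each of the 12 arrays (orange flox/-, purple -/-, grey WT), every panel spanning the same number of log2 units. Ccnd2 is lowest in flox/- day 8 at 7.34, and Ccnd1 is highest in WT day 8 at 12.71.

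Genes of the same machinery outside the 43 were read from lists of their own. Of 38 other replication genes tested 36 rose in pluripotent lines against MEF, with a median of 1.54, and Orc4 and Pole3 did not pass. The largest rises were in Ticrr, which helps fire origins (8.96-fold), the licensing factor gene Cdt1 (6.15-fold) and the fork protection gene Timeless (4.75-fold). Of 41 other mitotic genes 40 rose, with a median of 1.44, led by the cyclin F gene Ccnf (6.62-fold), the separase gene Espl1 (6.08-fold) and the checkpoint kinase gene Ttk (4.48-fold). Only the phosphatase gene Cdc25b of that list did not pass. Of 34 regulators 19 rose and 8 fell. Mybl2, which encodes B-Myb, rose 16.7-fold, Mycn 11.1-fold and Fbxo5, an inhibitor of the anaphase-promoting complex, 4.37-fold. Of the INK4 inhibitors of D cyclin kinases, Cdkn2c fell 7.09-fold, Cdkn2b 6.51-fold and Cdkn2a 2.87-fold, with limma adjusted p between 9.77e-06 and 0.00276. Cdkn2d differed by 0.03 ± 0.17 SE (limma adjusted p = 0.909), with overlapping arrays. The regulator list holds genes of opposite roles by design, so its count has no direction of its own. Cdkn1a was not analysed here.

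After 4 days of DOX the replication and mitotic members stood above MEF. All 22 replication members and all 14 mitotic members had a positive difference in the 2 day 4 arrays against the 3 MEF arrays, with medians of 1.29 and 1.17, against 0.04 over all genes. With 2 arrays against 3, limma called 5 members, all higher and all at the fork or in the helicase, where 2.53% of all genes were called higher. Prim1 measured 9.73 and 8.89 in flox/- and WT day 4, against 7.02, 7.48 and 7.67 in flox/-, -/- and WT MEF (1.92 ± 0.33 SE, 3.78-fold, adjusted p = 0.0473). Mcm7 rose 3.20-fold, Pola1 3.18-fold, Pole 3.08-fold and Rfc3 1.83-fold. Mitotic members did not pass, the lowest adjusted p being 0.0524, but all 14 had an unadjusted p under 0.05, as did 34.7% of all genes. Bub1 measured 10.87 and 10.56 in flox/- and WT day 4, against 9.14, 9.37 and 9.98 in flox/-, -/- and WT MEF, with no overlap. Of the other lists 7 of 38 replication genes, 4 of 41 mitotic genes and 3 of 34 regulators rose, Mybl2 by 4.77-fold. E2f1 stood at 8.62 and 8.57 in flox/- and WT day 4, inside the MEF range. The count of 5 rested on single arrays: it was 29 without WT day 4, where 30.8% of all genes were called, and 0 without flox/- day 4, where 0.759% were, or without any 1 of the 3 MEF arrays. In the fits without a day 4 array, the lone array left is assumed to vary like MEF. With genotype as a block it was 0.

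The 5 DOX arrays together span day 4 to day 11. Replication members had a median log2 difference from MEF of 1.21 and mitotic members of 0.87, with 0.06 over all genes. limma called 7 members, all higher, where 5.88% of all genes were called higher: Mcm10 (4.47-fold), Mcm7 (2.90-fold), Mcm6 (2.71-fold), Mcm5 (2.68-fold), Cdc20 (2.14-fold), Pcna (1.90-fold) and Rfc3 (1.77-fold). Mcm6 measured 10.43 and 9.71 in flox/- and WT day 4, 10.69 and 9.41 in flox/- and WT day 8, and 10.16 in WT day 11, against 8.34, 8.66 and 8.92 in flox/-, -/- and WT MEF. Every DOX array lay above every MEF array, with WT day 8 the lowest (1.44 ± 0.31 SE, adjusted p = 0.0273). The count changed with several of the arrays. Without WT day 8, 33 members and 24.3% of all genes were called, and the medians were 1.51 and 1.16. The count was 3 without flox/- day 8, 1 without flox/- day 4 and 0 without WT day 11 or without any 1 of the MEF arrays, fits in which 1.15% to 10.5% of all genes were called. This comparison, the day 4 comparison and the pluripotent comparison share the 3 MEF arrays.

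Between pluripotent lines and day 4, members of licensing and E2f1 were called higher, and the D cyclin genes Ccnd1 and Ccnd2 lower. Between the 4 pluripotent arrays and the 2 day 4 arrays, limma called 5 members higher, where 5.54% of all genes were called higher, and 2 members lower, where 6.15% were called lower. Orc1 measured 10.05, 9.83, 9.94 and 9.60 in flox/- iPSC, WT iPSC, -/- ESC and WT ESC, against 8.58 in flox/- day 4 and 7.44 in WT day 4 (1.85 ± 0.32 SE, 3.60-fold, adjusted p = 0.0192). Mcm3 rose 2.11-fold, Mcm2 1.96-fold, Gins2 1.91-fold and E2f1 1.53-fold. Gins2 stood at 8.75 and 8.74 in flox/- and WT day 4, and at 9.48 to 9.81 in the pluripotent lines. In flox/-, -/- and WT MEF it stood at 8.12, 8.66 and 8.54. Ccnd2 fell 6.57-fold (-2.72 ± 0.65 SE, adjusted p = 0.0453) and Ccnd1 2.44-fold (-1.29 ± 0.22 SE, adjusted p = 0.0188). Ccnd3 went the other way by 0.57 and did not pass. It measured 10.37 to 11.37 in the pluripotent lines, against 10.29 and 10.32 in flox/- and WT day 4. The median difference was 0.50 over replication members and 0.13 over mitotic members, with -0.04 over all genes, and limma called 0 of 14 mitotic members, while 3 had an unadjusted p under 0.05, as did 30.7% of all genes. Of the other lists 5 of 38 replication genes and 2 of 41 mitotic genes passed, all higher, and of 34 regulators 6 passed as higher and 4 as lower. The differences of the 14 mitotic members ran from -0.46 to 0.60, with Plk1, Aurka, Aurkb, Cdc20 and Ccna2 between -0.05 and 0.02. These values average 2 day 4 arrays that lay apart. In flox/- day 4, 11 of 14 mitotic members were at or above the lowest pluripotent array, and in WT day 4 2 of 14 were. The count of 7 was 16 without flox/- day 4, where 15.0% of all genes were called. It was 4 without -/- ESC and 1 without WT day 4, WT iPSC or flox/- iPSC, where 4.79% to 7.94% were.

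Set directly against pluripotent arrays, the 5 DOX arrays gave no call among the members. limma called 0 members and 0.00767% of all genes, a single gene. Without adjustment, 9 of 42 members had a p under 0.05, as did 15.7% of all genes. The median difference was -0.66 over replication members and -0.36 over mitotic members. Gins2 measured 8.75, 8.74, 9.41, 8.22 and 8.65 in flox/- day 4, WT day 4, flox/- day 8, WT day 8 and WT day 11, against 9.48 to 9.81 in the pluripotent lines. All DOX values lay below all pluripotent values (-0.93 ± 0.22 SE, adjusted p = 0.228). Without flox/- day 8, 3 members and 10.1% of all genes were called.

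**Figure D5:**
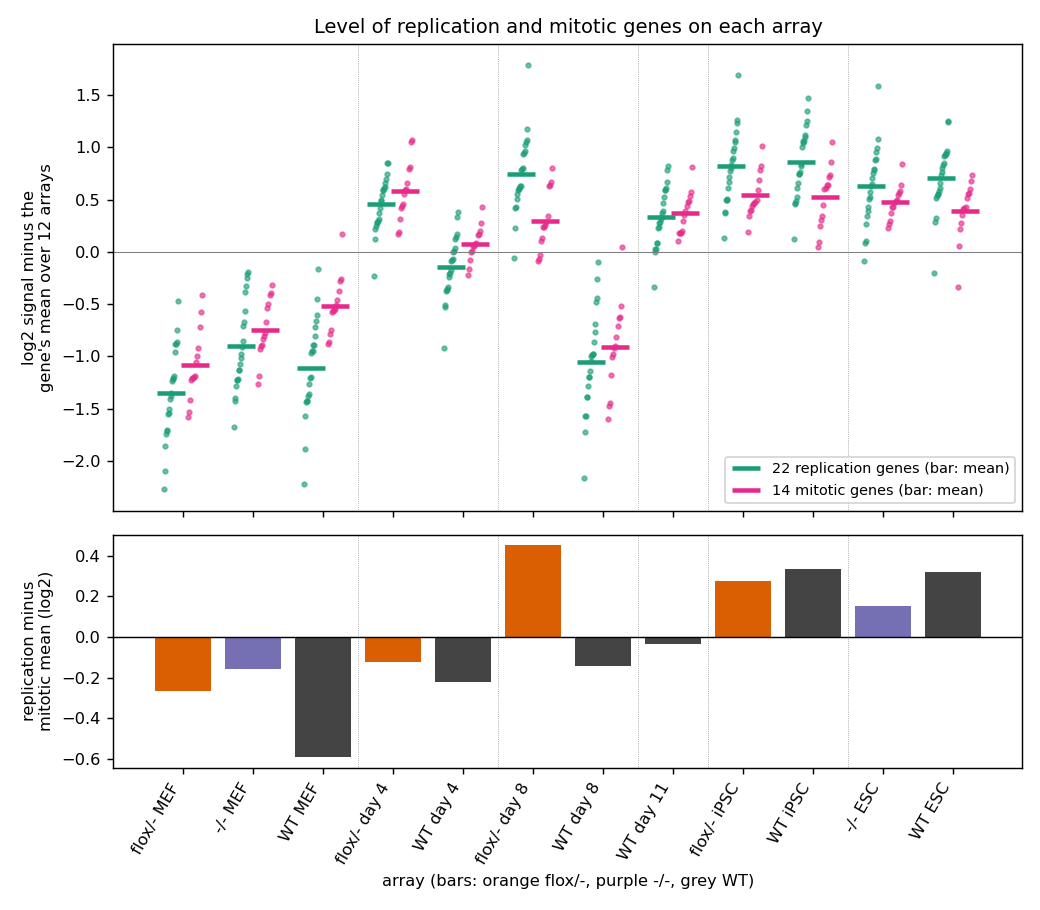
Top, the 22 replication genes (green) and 14 mitotic genes (pink) on each array as log2 signal minus the gene's own mean over the 12 arrays, with bars at the group mean; bottom, the replication mean minus the mitotic mean (orange flox/-, purple -/-, grey WT). The difference is negative on all 3 MEF arrays and both day 4 arrays, 0.45 in flox/- day 8 and 0.16 to 0.34 in the pluripotent lines.

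The course within each genotype rests on single arrays, so differences were described by fold with no test. Flox/- day 4 against flox/- MEF had 22 of 22 replication members and 14 of 14 mitotic members at least 1.5-fold higher, where 25.0% of all genes were. WT day 4 against WT MEF had 19 of 22 and 7 of 14, where 13.8% of all genes were higher by that much. Taking the rise from MEF to iPSC of the same genotype as 100% for members that rose by at least 0.5 log2 units, the median replication member in WT cells had covered 48.9% at day 4, 2.26% at day 8 and 73.9% at day 11. In flox/- cells it had covered 85.5% at day 4 and 95.3% at day 8. The median mitotic member had covered 61.7%, -36.5% (below WT MEF) and 85.5% in WT day 4, day 8 and day 11, and 105% and 87.4% in flox/- day 4 and day 8. Over all genes that rose by as much the medians were 37.9%, 32.8% and 72.9% in WT and 71.1% and 94.7% in flox/-. WT and flox/- arrays are each set against their own MEF, and flox/- MEF was the lowest array for 16 of 22 replication and 9 of 14 mitotic members. The share of all genes that were lowest there was not counted.

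Of 14 mitotic members, 7 had their highest value of all 12 arrays in flox/- day 4, among them Plk1 at 11.55, Aurka at 10.93 and Cdc20 at 10.97. The share of all genes that were highest there was not counted, so this need not be particular to the members. Between flox/- day 8 and flox/- day 4, 3 of 14 mitotic members were at least 1.5-fold lower and 0 higher, and 5 of 22 replication members were higher and 1 lower. Of all genes 23.0% were lower and 14.4% higher by that much, so the share of mitotic members that were lower was near that of all genes. Aurka stood at 9.98 in flox/- day 8 against 10.93 in flox/- day 4, Cdc20 at 10.07 against 10.97, and Plk1 at 10.69 against 11.55. Orc1 stood at 10.14 in flox/- day 8 against 8.58 in flox/- day 4, and Pola1 at 9.99 against 9.19. Of the replication members, 11 of 22 had their highest value in WT iPSC, again with no count over all genes. In WT day 11 against WT day 4, 8 of 22 replication and 2 of 14 mitotic members were higher by 1.5-fold, where 11.9% of all genes were, with Orc1 at 8.97 in WT day 11 against 7.44 in WT day 4. In WT iPSC against WT day 11, 6 of 22 and 1 of 14 were higher, where 8.45% of all genes were. Ccnd2 took another course: it measured 12.09 in flox/- day 4 and 7.34 in flox/- day 8, while in WT cells it measured 12.68 at day 4, 12.28 at day 8 and 12.06 at day 11.

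The WT day 8 array stood apart from the other DOX arrays. Of 22 replication members 8 lay above every MEF array there, against 21 or 22 in each of the other DOX arrays, and of 14 mitotic members 2 lay above and 5 below every MEF array. Of all genes 42.4% lay above and 36.1% below every MEF array on WT day 8. On the other 4 DOX arrays the share of all genes above every MEF array ran from 34.9% in WT day 4 to 46.2% in flox/- day 4. Against WT day 4, 17 of 22 replication and 12 of 14 mitotic members were at least 1.5-fold lower, where 18.6% of all genes were. Rrm2 stood at 9.38 in WT day 8 against 11.28 in WT day 4, Prim1 at 7.15 against 8.89, Top2a at 9.32 against 10.80 and Mki67 at 10.05 against 11.30. Cdc20 and Pcna were exceptions, at 10.20 and 11.24 in WT day 8, against 9.37 and 10.61 in WT MEF. Ccnd1 was highest there of all arrays, at 12.71. On this array Pou5f1 (Oct4, 1 of the transgene's factors) was at 12.63, the pluripotency marker Nanog at 5.59 and the fibroblast marker Dcn at 12.48. Dcn was the exception of its list: the other measured fibroblast markers lay below every MEF array, with Postn at 5.73 and Col1a1 at 8.75. The fibroblast marker mean was 7.96, against 11.45 to 11.75 in MEF. The pluripotency marker mean was 6.56, against 5.11 to 5.33 in MEF. Batch and stage cannot be told apart for WT day 8, since the other array of the earlier series was an ESC array.

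Between genotypes at the same day of DOX, single arrays were set side by side with no test. In flox/- day 4 against WT day 4, 11 of 22 replication and 5 of 14 mitotic members were at least 1.5-fold higher, where 14.7% of all genes were. The widest were Bub1b (10.65 in flox/-, 9.42 in WT), Mcm10 (10.04 in flox/-, 8.86 in WT) and Orc1 (8.58 in flox/-, 7.44 in WT). In flox/- day 8 against WT day 8 it was 21 of 22 and 13 of 14, where 22.5% of all genes were, with Orc1 at 10.14 against 6.19. In flox/- day 8 against WT day 11 it was 6 of 22 and 0 of 14, where 10.6% of all genes were, and those 6 included Orc1, Cdc6, Gins2 and Mcm3. In MEF the mitotic members went the other way: flox/- MEF against WT MEF had 7 of 14 mitotic members at least 1.5-fold lower, where 6.06% of all genes were. Of the replication members 1 of 22 was lower by that much, near the share of all genes. By sign alone 18 of 22 were lower, with a median of -0.28, where 5976 of 13044 genes were lower and the median was 0.03. The macrophage marker mean was 9.08 in flox/- MEF and 9.94 in WT MEF, and its part in this was not tested. In iPSC, flox/- against WT had 1 of 22 and 0 of 14 lower, where 7.72% of all genes were.

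Over the 4 stages that both genotypes share, limma with stage as a block called 0 members and 0.00% of all genes between flox/- and WT. Without adjustment, 0 members and 852 genes (6.53%) had a p under 0.05. The difference was positive for 21 of 22 replication members (median 0.55) and 14 of 14 mitotic members (median 0.24). Those medians rested on day 8: without WT day 8 or flox/- day 8 they were 0.16 and -0.02. Orc1 had the largest positive difference among the members, at 8.76 ± 1.81 in flox/- and 7.40 ± 1.73 in WT (SD, n = 4 each, log2 difference 1.36 ± 0.70 SE, adjusted p = 0.693). The differences of Ccnd2 (-1.63 ± 0.93 SE) and Ccnd1 (-0.51 ± 0.43 SE) were negative and did not pass (adjusted p = 0.693 and 0.721).

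Between -/- and WT cells no member passed. Over the 7 arrays without DOX limma called 0 members and 0.00% of all genes between -/- and WT, and 0 members and 1243 genes (9.53%) had an unadjusted p under 0.05. The median difference was 0.01 over replication members and -0.06 over mitotic members, and with 1 array left out the replication median ran from -0.14 without -/- MEF to 0.31 without -/- ESC. In -/- MEF against WT MEF 2 of 22 replication members, Orc1 (7.13 against 6.14) and Tyms (9.61 against 8.93), and 0 of 14 mitotic members were at least 1.5-fold higher, where 8.45% of all genes were. There 0 replication members and 2 mitotic members, Bub1 (9.37 in -/-, 9.98 in WT) and Ccnb2 (10.57 in -/-, 11.19 in WT), were lower, where 8.96% of all genes were. In -/- ESC against WT ESC 1 of 22, Tyms (9.93 against 10.63), and 0 of 14 were lower, where 15.4% of all genes were. Ccnd2 stood at 9.08 in -/- ESC against 10.87 in WT ESC. A p that misses the threshold with 2 arrays of -/- cells does not show that the genotypes are equal: Orc1 differed by 0.58 ± 0.25 SE (adjusted p = 0.532).

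The balance of replication over mitotic genes was read on each array as the mean of the 22 replication members minus the mean of the 14 mitotic members, each gene first centred on its mean over the 12 arrays. It was -0.27 in flox/- MEF, -0.16 in -/- MEF and -0.59 in WT MEF. At day 4 it was -0.12 in flox/- and -0.22 in WT cells, at day 8 it was 0.45 in flox/- and -0.14 in WT cells, and in WT day 11 it was -0.03. In flox/- iPSC it was 0.28, in WT iPSC 0.34, in -/- ESC 0.16 and in WT ESC 0.32. The 4 pluripotent arrays and flox/- day 8 were positive and the other 7 arrays negative. With each gene centred, the list that changed more tends to set the sign of the balance in MEF and pluripotent arrays. The median difference between these states was 1.98 in replication members and 1.26 in mitotic members. The balance was not read for the other lists. The members were chosen with results of these data known, so the balance carries no test. Flox/- day 4 had the highest mitotic mean of all arrays, 0.58, with a replication mean of 0.46, and flox/- day 8 had 0.30 and 0.75.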

How the data were processed

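RNA of 12 mouse samples was extracted with TRIzol, labelled with biotin and hybridised, per the labels' protocols. The log2 signals deposited by the authors cover 35512 probe sets on 12 arrays and run from 3.11 to 13.99. How they were summarised and normalized is not given in the sources used here. Per the labels, the labelling protocol names a 3′ kit, while the probe sets belong to a whole-transcript array, and this was not resolved. Array medians differed by 0.122, more than the 0.1 at which quantile normalization across arrays was applied. Of the probe sets, 21789 had 1 gene symbol in the array's annotation, 1621 had several and 12102 were not listed; the last 2 kinds were left out. The number of columns left unused was 0.

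For 999 genes with several probe sets the one with the highest mean was read. Genes above the array median on at least 1 array were kept. Arrays have no read depth, and their number limits precision. limma (version 3.58.1, R 4.3.3, with the package data.table in version 1.17.8) gave moderated two-sided tests with Benjamini-Hochberg adjustment, with groups from the labels and arrays of 1 state as replicates; p-values measure the spread between these arrays, which no label ties to separate cultures. On simulated data of 13044 genes with 100 genes changed by 1 log2 unit and 100 by 2, the pluripotent comparison with MEF recovered 58% and 89%, and the day 4 comparison with MEF 13% and 56%. Named genes are all members, the 3 largest rises and 3 largest falls called in each other list, and markers; array-specific examples, Orc4, Pole3, Cdc25b and Cdkn2d were chosen after their values were seen. The members and lists were chosen with earlier results of these data known. Alternatives tried were other scalings, filters, probe set rules, variance settings and fits, blocks, and leaving out arrays.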

Additional observations from a re-analysis of the deposited data

Results flagged for a closer look

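In 9 of 84 pairs of a member and a group of arrays, 1 array lay far from the others of its group, by a rule that chance meets in about 5% of groups (1 in 20) of independent replicates. In 6 of them the WT day 8 array was low among the 5 DOX arrays: Rrm2 at 9.38 (next lowest 11.18), Ccne1 at 9.35 (10.58), Ccna2 at 10.55 (11.65), Ccnb2 at 10.58 (11.53), Aurkb at 9.46 (10.62) and Cenpa at 9.15 (10.34). Ccnd2 was far below the other DOX arrays in flox/- day 8, at 7.34 against 12.06 in the nearest. Among the pluripotent arrays, Aurka was low in -/- ESC, at 10.37 (next 10.47, a small distance within a narrow group), and Top2a was low in WT ESC, at 11.08 (next 11.62). The arrays of a group differ in genotype or day and the members share arrays, so the 5% cannot be set against these pairs. The rule was not run on all genes.

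For 5 members flox/- and WT cells moved in opposite directions between day 8 and day 4 by at least 1.5-fold each. Day 8 minus day 4 was 1.57 in flox/- and -1.25 in WT for Orc1, 0.67 and -0.83 for Mcm2, 0.68 and -0.61 for Mcm3, and 0.80 and -1.71 for Pola1, while Ccnd1 went the other way, with -1.18 in flox/- and 0.66 in WT. Each value rests on single arrays, the WT day 8 array came from an earlier series, and the difference was not tested. The share of all genes that moved in opposite directions was not counted.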

How the results depend on the processing

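The pluripotent comparison with MEF was stable in its count, 38 members under every scaling, filter and left-out array tried and 34 in a fit of all 12 arrays. The comparisons with DOX arrays were not, and the cause was not tested beyond what each alternative changes. For all DOX arrays against MEF (7 members) the count was 3 with no filter on dim genes, 22 in a fit of all 12 arrays, 32 in that fit with the earlier series as a block, 33 without the arrays of the earlier series, 0 with genotype as a block, 0 without the -/- arrays, and 0 to 33 with 1 array left out. For day 4 against MEF (5 members) it was 3 with values as deposited, 3 with no filter, 13 with genes above the median on at least 3 arrays, 11 with trend and robust settings, 8 and 18 in the fits of all arrays without and with that block, 0 with genotype as a block or without the -/- arrays, and 0 to 29 with 1 array left out. For pluripotent against day 4 (7 members) it was 4 with no filter, 0 and 2 in the fits of all arrays without and with the block, 4 without the -/- arrays, and 1 to 16 with 1 array left out. For DOX against pluripotent it was 0 to 3 with 1 array left out. The flox/- and -/- comparisons with WT had 0 members in all alternatives.

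The median of replication members was above that of mitotic members in all 19 settings, the reported one included, of pluripotent against MEF (1.84 to 2.14 against 1.11 to 1.41) and in the 20 settings for DOX and the 16 for day 4 against MEF. All settings use the same members, so they say nothing of other genes. In the other lists the replication and mitotic medians were 1.54 and 1.44 in pluripotent lines against MEF. They were 1.02 and 0.91 for DOX, and 1.10 and 1.14 for day 4, where the order was reversed. The sign of the replication-minus-mitotic balance was the same on all 12 arrays in the 4 alternatives tried, in which it ran from 0.46 to 0.48 in flox/- day 8. At a threshold of 2-fold, WT day 4 against WT MEF had 9 of 22 replication and 0 of 14 mitotic members higher. The labels give no replicate numbers by which to pair arrays, so stage and genotype served as the blocks in the fits above.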
